A study of Mus musculus with 8 samples.

Results

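The serpins are a superfamily of protease inhibitors, and 64 of the 34745 genes in the deposited expression table of mouse skin carry a symbol that begins with Serpin. Members were taken by that symbol alone, and 5 rows whose symbol marks them as pseudogenes were left out. Clade b holds 28 of the 64 members, 13 in a cluster on chromosome 1 and 15 in a cluster on chromosome 13. The other clades hold 36, of which 25 belong to clade a, 1 each to clades c, d, g and h, 2 each to clades f and i, and 3 to clade e. Whole-tissue RNA was sequenced from skin taken at 16 weeks of age, in 8 libraries, 4 in each group. The NcstnΔKC mice were Ncstn flx/flx; Krt14 CreER+/- animals, which carry floxed alleles of the γ-secretase subunit nicastrin and a tamoxifen-activated Cre under the Krt14 promoter of basal keratinocytes. Tamoxifen was gavaged daily at 20 mg/kg, starting at the age of 8 weeks, over 5 days, with further doses at intervals of 10 days. The normal mice were given corn oil. The protocol assigns them the same floxed genotype, whereas their genotype label reads wildtype. Since only the NcstnΔKC mice had tamoxifen, the drug and the deletion cannot be told apart.

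An inhibitory serpin offers a protease an exposed loop as bait. When the protease cuts the loop, the serpin folds over and traps the enzyme, and both are used up. Clade b serpins lack a classical secretion signal and act largely inside cells, many of them in epithelia and leukocytes, where they restrain serine proteases and lysosomal cathepsins. Most serpins of the other clades are secreted and control coagulation, fibrinolysis, complement and inflammation, and a few have lost inhibitory activity and serve as carriers, chaperones or signals.

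Total counts ran from 11881506 to 12893174 in the NcstnΔKC libraries and from 5835422 to 8663753 in the normal libraries. Ncstn itself had 66.8, 50.2, 57.8 and 56.2 CPM (counts scaled to a common library size by edgeR) in NcstnΔKC replicates 1 to 4, against 60.7, 61.9, 61.3 and 58.4 CPM in normal replicates 1 to 4, which differed by -0.07 ± 0.12 on the log2 scale (SE, adjusted p = 0.663). The floxed part cannot be read apart from the rest of the gene in these counts, so the groups are named by their labels. All mice were labelled male, but replicates 3 and 4 of both groups held 22304 to 37109 counts of Xist, and the other 4 libraries held 4 to 9. Y-linked genes held 13 to 35 counts in replicates 3 and 4 of both groups and 904 to 4515 in the other 4 libraries. The male label thus goes against the counts of replicates 3 and 4. All 13 basal keratinocyte markers were detected, as the skin label requires. NcstnΔKC replicate 1 stood apart from the other NcstnΔKC libraries in its immune cell markers, normal replicate 2 from the other normal libraries in its hair follicle markers, and normal replicate 1 in its skeletal muscle markers. Library values that bear on a serpin are given beside it.

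The promoters of the clade b genes on chromosome 1 shared a short motif. TGANTCA, which takes in the AP-1 consensus TGAGTCA, was searched on both strands in the 300 bases from 250 before to 50 after the RefSeq start (GRCm38.p6), for the 53 distinct member promoters that matched the RefSeq table. It was present in 7 of 11 promoters of the chromosome 1 cluster, in 0 of 14 of the chromosome 13 cluster and in 4 of 28 of the other clades. Of 27025 promoters in the table, 7.93% held it. The windows below are shown because they come from the gene cluster with the most clade b changes. Capitals mark the motif, and each window is 31 bases of the plus strand, printed 5′ to 3′.
Serpinb5, chr1:106861023-106861053: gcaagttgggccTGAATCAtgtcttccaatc
Serpinb12, chr1:106934392-106934422: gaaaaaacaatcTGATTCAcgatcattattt
Serpinb11, chr1:107362121-107362151: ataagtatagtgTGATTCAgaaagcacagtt
Serpinb11, chr1:107362226-107362256: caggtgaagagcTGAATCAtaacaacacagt
Serpinb7, chr1:107422632-107422662: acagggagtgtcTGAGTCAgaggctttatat
Serpinb2, chr1:107511317-107511347: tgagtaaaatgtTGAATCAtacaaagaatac
Serpinb10, chr1:107528937-107528967: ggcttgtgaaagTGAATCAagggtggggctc
Serpinb8, chr1:107589971-107590001: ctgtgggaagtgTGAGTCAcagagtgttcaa
In these windows the motif began 23 to 181 bases before the RefSeq start. Serpinb8 holds a further match, which begins after the start and is not printed. The consensus form was present in 2 of the 7 promoters, those of Serpinb7 and Serpinb8, against 5.17% of all promoters. The 4 promoters of the cluster without the motif were those of Serpinb3a, Serpinb3b, Serpinb3c and Serpinb3d. The run TATAAA was found in 7 of the 11, against 14.2% of all promoters. It was searched at any position and on both strands, so a match need not be a TATA box. The 7 include the promoters of Serpinb3a, Serpinb3b, Serpinb3c and Serpinb3d, which are neighbouring copies. A match is a run of letters in a window and not a measured binding site. Of the genes with the motif, Serpinb2, Serpinb10 and Serpinb5 passed the test below and the other 4 did not. Of those without it, Serpinb3a passed, Serpinb3b did not, and Serpinb3c and Serpinb3d were not tested. So few genes cannot show whether the motif goes with the response. The calls of Serpinb5, Serpinb10, Serpinb7 and Serpinb12 also changed when certain single libraries were left out.

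Of the 64 members, 35 had enough counts to be tested, 15 of clade b and 20 of the other clades. Genes were compared with edgeR's quasi-likelihood test, with Benjamini-Hochberg adjustment over 15684 genes and a threshold of 0.05. In clade b 5 of 15 tested members were higher in NcstnΔKC skin and 0 were lower, while among all tested genes 21.4% were higher and 22.7% lower. For that 0, 1 clade b member had a log2 fold change below 0 at an unadjusted p under 0.05, and the DESeq2 Wald test and limma-voom each called 1. The 0 did not hold when any 1 library was left out, which gave 1 or 2 lower clade b members (2 without NcstnΔKC replicate 1 or normal replicate 1, and 1 without each of the others). Those runs tested 16 clade b members, against 15 in the main run. Of the 15, only Serpinb7 (without NcstnΔKC replicate 1) and Serpinb6a (without normal replicate 1) turned lower. The remaining lower call in each run was of a member that the main filter left out. Upper-quartile scaling and Xist as a covariate gave 1, which was Serpinb7. Without the filter 23 clade b members were tested and 1 was lower, which was not among the 15. The libraries with Xist tested 17 and gave 5, of which Serpinb6a, Serpinb7, Serpinb8 and Serpinb11 were among the 15. In the other clades 4 of 20 were higher and 5 lower. The 2 groups of libraries did not overlap in CPM in 4 higher and 0 lower of the tested members of clade b and in 2 higher and 5 lower of those of the other clades, where 20.9% of all tested genes did not overlap and were higher, 20.7% were lower and 41.6% were either. Taken in either direction, 33.3% of tested clade b members and 45.0% of tested members of the other clades passed, close to the 44.1% of all genes, so the family as a whole was not called more often than the table. The share called is therefore not a result about serpins, and the values of single members are what follows.

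**Figure D1:**
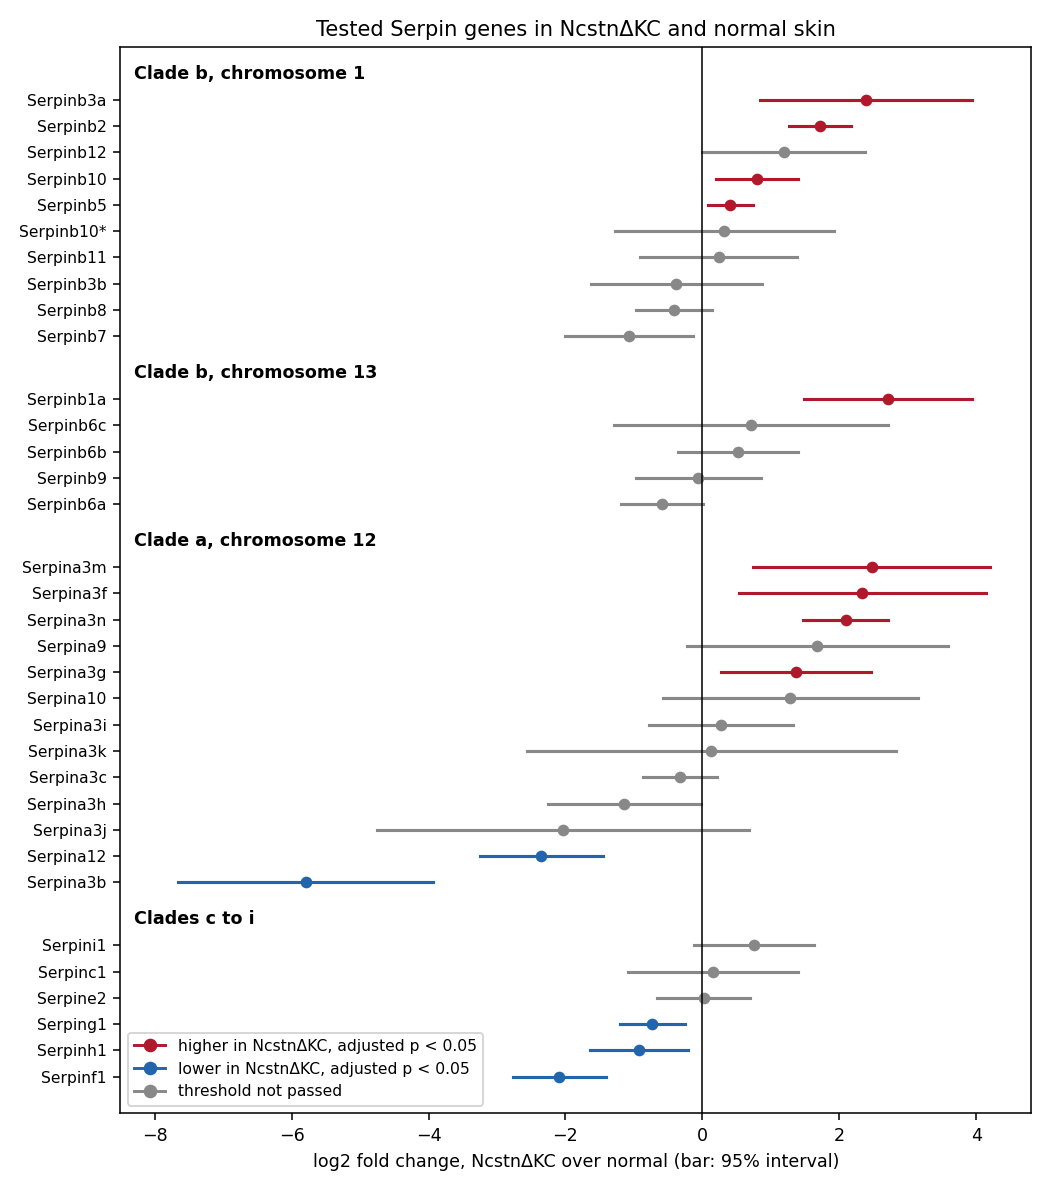
Log2 fold change of NcstnΔKC over normal skin for the tested Serpin genes reported here, with 95% intervals, in 4 blocks by clade and chromosome. Red and blue mark genes past the threshold, and the asterisk marks the Serpinb10 row ENSMUSG00000102843. The chromosome 1 block of clade b runs from -1.07 to 2.39 with 4 genes in red, and Serpina3b lies farthest from 0 at -5.80.

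The median log2 fold change was 0.41 over the 15 clade b members and 0.14 over the 20 members of the other clades, with -0.02 over all tested genes. The other clades were far more spread, from -5.80 to 2.47, against -1.07 to 2.71 in clade b. No test of the difference between the clades was made, since the members of a cluster share sequence and neighbourhood. The scale moved these figures. When libraries were scaled by total counts, clade b had 6 higher and 0 lower, the other clades 5 and 3, and all tested genes 5323 and 2224. The 13 basal keratinocyte genes themselves changed, with 10 higher, 2 lower and a median log2 fold change of 1.12, so scaling by them lowers the values of all other genes. When libraries were scaled by these genes, clade b had 3 and 3, the other clades 1 and 6, and all tested genes 1000 and 5821. The clade b median was 0.73 and -0.08 under these scalings, beside 0.29 and -0.50 for all tested genes. Higher and lower are to be read relative to those medians. In the 4 libraries with Xist, 2 against 2, clade b had 5 higher and 5 lower members of 17 tested. Its median was 0.11 over the 15 members of the main run, and the other clades had 7 and 5. In the 4 libraries without Xist, also 2 against 2, the counts were 0 and 0 in both parts of the family and 3 and 1 in the whole table.

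Serpinb2 (ENSMUSG00000062345, mm10, chromosome 1, 107511423 to 107535478) had the lowest adjusted p of clade b. It encodes an inhibitor of urokinase and tissue plasminogen activator that is made by keratinocytes and macrophages. It had 447, 538, 448 and 449.7 CPM in NcstnΔKC replicates 1 to 4, against 127, 101, 194 and 150.0 CPM in normal replicates 1 to 4. The lowest NcstnΔKC library lay 253 CPM above the highest normal one, and the log2 fold change was 1.72 ± 0.20 (SE, adjusted p = 0.000372). Per gene length it had 141 ± 19.7 FPKM in NcstnΔKC skin and 34.0 ± 8.19 FPKM in normal skin (SD, n = 4 each). Leaving out any library kept the call, at 1.64 to 1.97. Its interval overlaps Serpinb10 by 6476 bases, and 11.2% of its 31-base stretches also occur there. How shared reads were counted is not given in the sources used here, so its count is uncertain to that extent. The 13 basal keratinocyte markers took 1.38, 2.03, 1.86 and 1.88% of counts in NcstnΔKC replicates 1 to 4 and 1.34, 0.792, 0.947 and 1.07% in normal replicates 1 to 4, and none was at 0. Of the 10 macrophage and dendritic cell markers 4 were higher and 0 lower, with shares given under Serpinb1a. The part of these cells in the rise of Serpinb2 was not tested. Its promoter holds the TGAATCA form printed above.

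Serpinb5 (ENSMUSG00000067006, mm10, chromosome 1, 106861173 to 106883348) encodes maspin, an epithelial serpin that does not inhibit proteases. It had 282, 395, 333 and 299 CPM in NcstnΔKC skin, against 257, 243, 275 and 213 CPM in normal skin. The groups did not overlap, but the gap was small, and the log2 fold change was 0.41 ± 0.14 (SE, adjusted p = 0.0459). The call ended without NcstnΔKC replicate 2, 3 or 4 or normal replicate 2 or 4 (0.31 to 0.46), and with scaling by basal keratinocyte genes the value was -0.08. With upper-quartile scaling and with the fit that is not robust it also did not pass.

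The Serpinb10 row ENSMUSG00000092572 (107529003 to 107549271 on chromosome 1) belongs to a serpin known in human as bomapin, of blood-forming cells. GENCODE M21 annotates this row as a polymorphic pseudogene. It had 32.1, 56.9, 40.0 and 41.1 CPM in NcstnΔKC skin, against 23.5, 13.9, 31.3 and 28.7 CPM in normal skin, a log2 rise of 0.80 ± 0.27 (SE, adjusted p = 0.037). The lowest NcstnΔKC library, replicate 1, lay just above the highest normal one. This row overlaps Serpinb2 by 6476 bases and shares 7.52% of its 31-base stretches with it, so its count is uncertain, since how shared reads were counted is not given in the sources used here. Without NcstnΔKC replicate 2, 3 or 4 or normal replicate 1 the call ended (0.63 to 0.85). The second Serpinb10 row, ENSMUSG00000102843, lies within the other and had only 0.269 to 3.27 CPM in NcstnΔKC skin and 0.912 to 1.55 CPM in normal skin (log2 fold change 0.32 ± 0.71 SE, adjusted p = 0.734).

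Serpinb3a (ENSMUSG00000044594, mm10, chromosome 1, 107045587 to 107052303) is a mouse relative of the human squamous cell carcinoma antigens, which inhibit cathepsins. It was scarce, with 2.60, 2.80, 2.56 and 3.02 CPM in NcstnΔKC skin, against 0, 0, 0.988 and 0.912 CPM in normal skin. Those values rest on 31 to 45 counts per NcstnΔKC library and 0 to 7 per normal library. The groups did not overlap, and the log2 fold change was 2.39 ± 0.69 (SE, adjusted p = 0.0202). Normal replicates 1 and 2 were at 0, so the fitted fold change depends on the prior count, and without normal replicate 3 or 4 it was 3.01 and 2.94. Of the gene's 31-base stretches 33.5% occur elsewhere in the annotation, so assignment among the copies is uncertain. Of the neighbouring copies, Serpinb3b had 9.40, 15.0, 5.53 and 5.17 CPM in NcstnΔKC skin and 8.66, 4.23, 25.1 and 7.43 CPM in normal skin (log2 fold change -0.38 ± 0.55 SE, adjusted p = 0.603). Serpinb3d had 4 counts over the NcstnΔKC libraries and 0 over the normal ones, and Serpinb3c had 0 over the NcstnΔKC libraries and 3 over the normal ones.

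Of the 6 tested members of the chromosome 1 cluster that did not pass, Serpinb7 had the largest negative value. In human, loss of this serpin causes a palmoplantar keratosis. It had 40.7, 22.5, 12.9 and 11.5 CPM in NcstnΔKC skin, against 54.4, 28.4, 60.0 and 41.0 CPM in normal skin, a log2 difference of -1.07 ± 0.42 (SE, adjusted p = 0.0624). NcstnΔKC replicate 1 lay inside the normal range and the other 3 libraries below it, and the gene passed without that library (-1.55). Serpinb12 had 24.3, 15.4, 11.5 and 8.93 CPM in NcstnΔKC skin and 2.73, 3.83, 14.5 and 5.08 CPM in normal skin (log2 fold change 1.19 ± 0.53 SE, adjusted p = 0.0961), and it passed without normal replicate 3 (2.01), its highest normal library.

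Serpinb11 (ENSMUSG00000026327, mm10, chromosome 1, 107361198 to 107380475) is among the 5 clade b members with the highest mean FPKM (the count divided by gene length and library total). It had 106, 36.3, 27.4 and 23.3 CPM in NcstnΔKC skin, against 63.5, 21.8, 36.0 and 41.8 CPM in normal skin (log2 fold change 0.24 ± 0.51 SE, adjusted p = 0.729). NcstnΔKC replicate 1 was the highest of all 8 libraries, and the other 3 lay in the lower part of the normal range. The value was -0.49 without it, and -0.58 in the libraries with Xist alone, where the gene passed as lower (adjusted p = 0.024). Serpinb8, whose loss in human causes peeling of the skin, had 119, 102, 68.9 and 56.8 CPM in NcstnΔKC skin and 115, 86.5, 135 and 127 CPM in normal skin (log2 fold change -0.42 ± 0.25 SE, adjusted p = 0.195). Serpinb13, which in human inhibits cathepsin L, was not tested, with 23 counts over the NcstnΔKC libraries and 26 over the normal ones.

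On chromosome 13, 5 of 15 clade b members were tested and 1 passed. Serpinb1a (ENSMUSG00000044734, mm10, chromosome 13, 32842092 to 32851185) inhibits neutrophil elastase, proteinase 3 and cathepsin G. It had 13.3, 67.9, 95.5 and 92.4 CPM in NcstnΔKC skin, against 8.96, 7.26, 14.4 and 10.3 CPM in normal skin, a log2 difference of 2.71 ± 0.55 (SE, adjusted p = 0.00442), which held without each library in turn (2.50 to 3.05). NcstnΔKC replicates 2 to 4 were far above the normal libraries, and replicate 1 lay within their range. The 10 macrophage and dendritic cell markers took 0.0402, 0.209, 0.243 and 0.282% of counts in NcstnΔKC replicates 1 to 4 and 0.0347, 0.0449, 0.0369 and 0.0618% in normal replicates 1 to 4, with 4 of 10 higher, 0 lower and none at 0. The 12 neutrophil markers took 0.0136, 0.0366, 0.0604 and 0.0768% in the NcstnΔKC replicates and 0.00194, 0.00230, 0.00229 and 0.00311% in the normal replicates, with 10 of 10 tested higher. Their part in the rise of Serpinb1a was not tested. In whole tissue, more cells of a type and more RNA per cell cannot be told apart.

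The other tested members of that cluster did not pass. Serpinb6a (ENSMUSG00000060147, mm10, chromosome 13, 33917918 to 34002794), an inhibitor of cathepsin G and other serine proteases, had 156, 97.4, 121 and 148 CPM in NcstnΔKC skin, against 103, 219, 238 and 225 CPM in normal skin (log2 fold change -0.59 ± 0.27 SE, adjusted p = 0.102). Normal replicate 1 was the lowest normal library by far and lay inside the NcstnΔKC range, and without it the gene passed as lower (-0.73). Normal replicate 1 also stood apart in the 10 skeletal muscle markers, which took 0.795, 0.112, 0.316 and 0.389% of counts in NcstnΔKC replicates 1 to 4 and 0.759, 3.89, 5.84 and 5.17% in normal replicates 1 to 4, with 10 of 10 lower and none at 0. Their part was not tested. Its interval overlaps Nqo2 by 23807 bases and 29.0% of its 31-base stretches are shared, so its level is uncertain. In Serpinb6c normal replicate 1 was the highest of all 8 libraries, with 9.48, 7.93, 9.12 and 10.1 CPM in NcstnΔKC skin and 18.7, 2.22, 0.424 and 1.04 CPM in normal skin (log2 fold change 0.71 ± 0.89 SE, adjusted p = 0.542), and it passed as higher without normal replicate 1 (3.03). Serpinb9, an inhibitor of granzyme B, had 2.77, 6.22, 8.30 and 8.06 CPM in NcstnΔKC skin and 3.34, 7.26, 9.74 and 6.12 CPM in normal skin (-0.06 ± 0.40, 95% interval -0.97 to 0.85). Serpinb6b had 0.923 to 1.88 CPM in NcstnΔKC skin and 0.456 to 1.41 CPM in normal skin (log2 fold change 0.52 ± 0.39 SE, adjusted p = 0.301).

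Serpinb6d (ENSMUSG00000047889, mm10, chromosome 13, 33661405 to 33671581) was the most uneven member. It had 9, 1, 0 and 0 counts in NcstnΔKC replicates 1 to 4, against 1141, 5, 1547 and 16 counts in normal replicates 1 to 4. Normal replicates 1 and 3 thus held nearly all of its reads, at 115 and 122 FPKM, and the other 6 libraries were at or near 0. The groups did not overlap in CPM, but too few libraries reached the count filter and the gene was not tested. The high libraries were neither those with Xist nor those without, since normal replicate 3 had Xist and normal replicate 1 did not. Serpinb6e, its neighbour, had 8, 0, 1 and 1 counts in NcstnΔKC skin and 3, 1, 12 and 73 in normal skin, with its peak in normal replicate 4 instead. Serpinb9c, Serpinb9d, Serpinb9e, Serpinb9f and Serpinb9g had no counts, and Serpinb1b, Serpinb1c and Serpinb9b had 6 to 15 over the NcstnΔKC libraries and 1 to 14 over the normal ones.

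**Figure D2:**
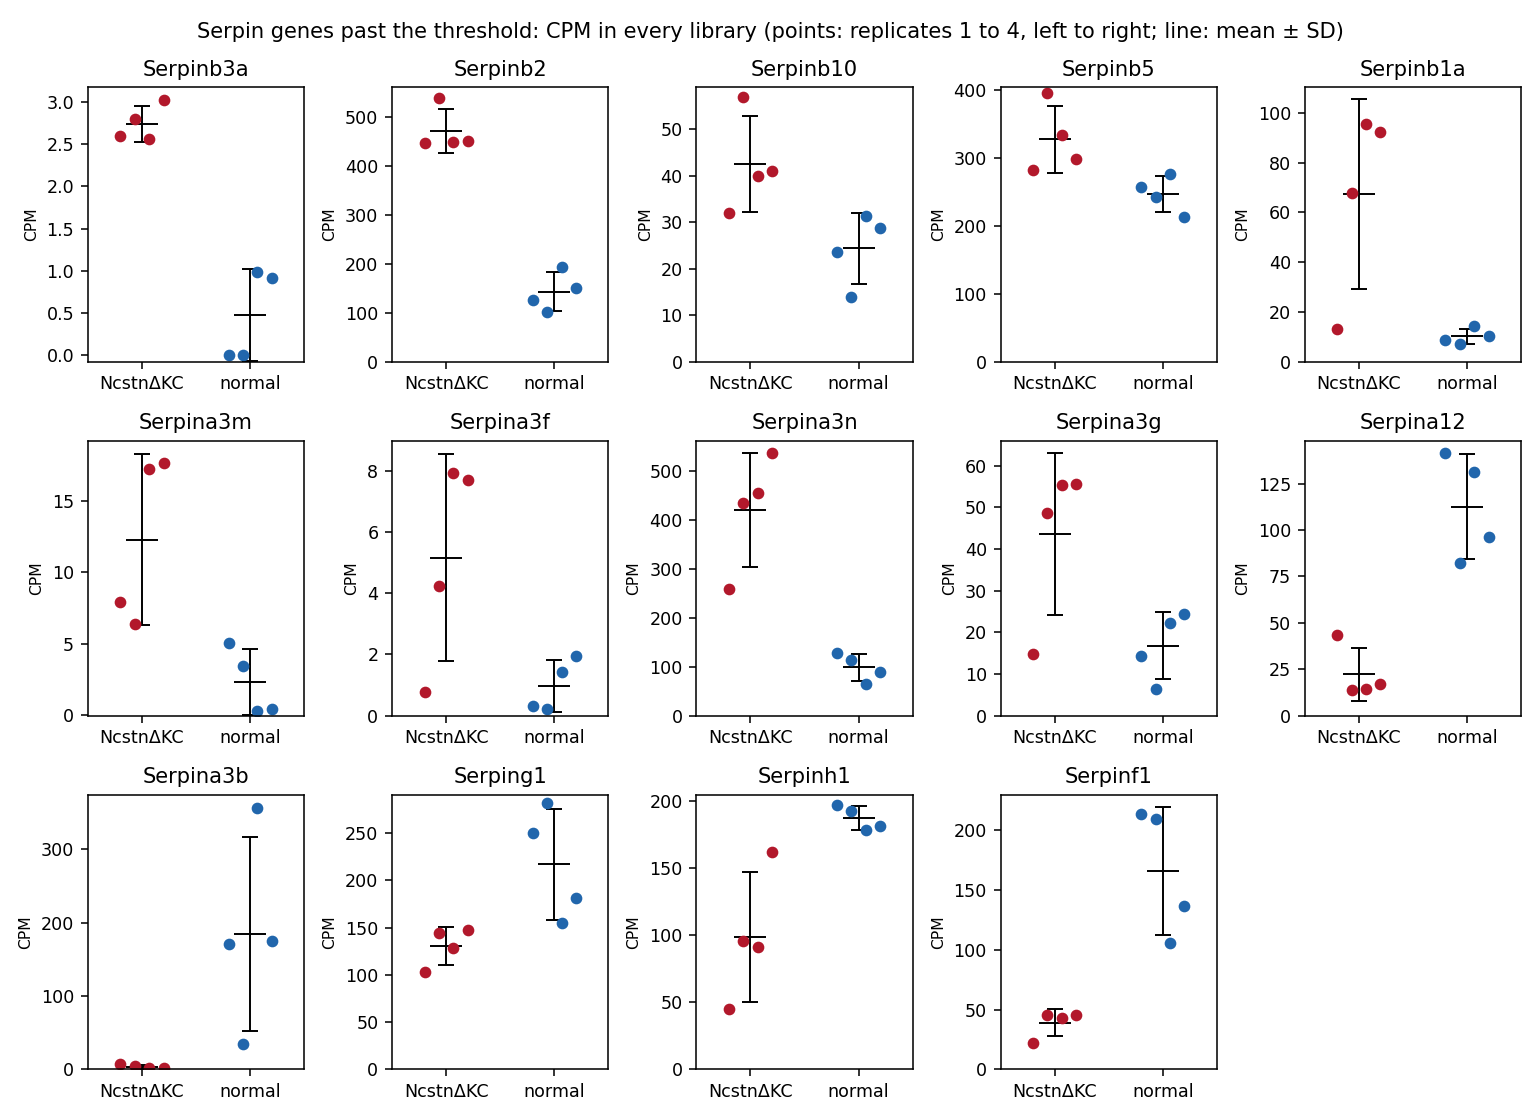
CPM in every library for the 14 Serpin genes past the threshold, NcstnΔKC left of normal, with the mean and SD of 4 libraries. Serpinb2 and Serpina3n separate widely, while in Serpinb1a, Serpina3f and Serpina3g NcstnΔKC replicate 1, the leftmost red point, lies within the normal range.

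Clade a held both the gene with the largest difference in mean FPKM, Serpina3n, and the gene with the most negative fold change, Serpina3b. In the Serpina3 cluster of chromosome 12, mouse copies of what in human is the single gene of α1-antichymotrypsin, 4 of 10 tested genes were higher and 1 was lower. Taken in either direction this was 50%, near the 44.1% of all tested genes. Serpina3n (ENSMUSG00000021091, mm10, chromosome 12, 104406729 to 104414329) is a secreted acute phase protein that inhibits granzyme B, elastase and cathepsin G. It had 259, 436, 455 and 537 CPM in NcstnΔKC skin, against 129, 113, 65.1 and 88.9 CPM in normal skin. The lowest NcstnΔKC library was 130.3 CPM above the highest normal one, a log2 difference of 2.09 ± 0.27 (SE, adjusted p = 0.000625). The range without each library in turn was 1.96 to 2.33. Per gene length it had 231 ± 74.1 FPKM in NcstnΔKC skin and 43.1 ± 14.6 FPKM in normal skin (SD, n = 4 each).

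Serpina3b (ENSMUSG00000066364, mm10, chromosome 12, 104127996 to 104139545) moved the other way. It had 6.80, 3.89, 1.18 and 1.54 CPM in NcstnΔKC skin, against 171, 34.9, 357 and 175 CPM in normal skin, a log2 difference of -5.80 ± 0.82 (SE, adjusted p = 0.000931). The normal libraries ranged widely, with replicate 2 lowest, yet that library was still well above every NcstnΔKC one. Without each library in turn the value ran from -6.37 (without NcstnΔKC replicate 1) to -5.21 (without normal replicate 3). The call was kept in every alternative but the libraries without Xist (-4.27, adjusted p = 0.092).

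Serpina3g (ENSMUSG00000041481, mm10, chromosome 12, 104236245 to 104241939), an intracellular inhibitor of cathepsins known from activated macrophages and T cells, had 14.8, 48.7, 55.2 and 55.7 CPM in NcstnΔKC skin, against 14.3, 6.45, 22.2 and 24.4 CPM in normal skin (log2 fold change 1.37 ± 0.48 SE, adjusted p = 0.046). Serpina3f (ENSMUSG00000066363, mm10, chromosome 12, 104214544 to 104221129), its close copy, had 0.755, 4.24, 7.95 and 7.72 CPM in NcstnΔKC skin and 0.304, 0.202, 1.41 and 1.95 CPM in normal skin (log2 fold change 2.34 ± 0.80 SE, adjusted p = 0.0405). In both genes NcstnΔKC replicate 1 lay within the normal range, like its share of macrophage and dendritic cell markers given above, and the part of those cells was not tested. Both calls ended without NcstnΔKC replicate 2, 3 or 4 or normal replicate 1, 2 or 3, at 1.17 to 1.59 for Serpina3g and 2.07 to 2.62 for Serpina3f. They share 15.3% to 16.2% of their 31-base stretches with each other, so both counts are uncertain.

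Serpina3m (ENSMUSG00000079012, mm10, chromosome 12, 104338486 to 104394257) had 7.89, 6.35, 17.3 and 17.7 CPM in NcstnΔKC skin, against 5.01, 3.43, 0.282 and 0.391 CPM in normal skin (log2 fold change 2.47 ± 0.77 SE, adjusted p = 0.028). Replicates 3 and 4, the libraries with Xist, were the highest in NcstnΔKC skin and the lowest in normal skin. The fold change was 5.68 in the libraries with Xist and 0.75 in those without, and the difference between these had an unadjusted p of 2.42e-05 and an adjusted p of 0.102 over all genes. The call ended without NcstnΔKC replicate 3 or 4 or normal replicate 3 or 4 (2.15 to 2.27), and without normal replicate 1 the value was 3.39. The interval of Serpina3m contains the whole of Serpina3k, 7659 bases. Serpina3k had 6.21, 0.342, 1.18 and 2.01 CPM in NcstnΔKC skin and 7.74, 0.605, 0.424 and 0 CPM in normal skin (log2 fold change 0.13 ± 1.19 SE, adjusted p = 0.937), and reads of both genes cannot be told apart from these counts.

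The remaining Serpina3 copies did not pass. Serpina3h, annotated as a transcribed pseudogene in GENCODE M21, had 14.3, 28.3, 23.7 and 23.3 CPM in NcstnΔKC skin and 37.2, 12.3, 60.6 and 87.3 CPM in normal skin (log2 fold change -1.14 ± 0.49 SE, adjusted p = 0.0883). It passed as lower without normal replicate 2 (-1.40). Serpina3j had 27.7, 0.615, 0.830 and 1.48 CPM in NcstnΔKC skin and 15.0, 7.86, 31.9 and 68.3 CPM in normal skin (log2 fold change -2.03 ± 1.20 SE, adjusted p = 0.198). NcstnΔKC replicate 1 alone kept it from separating, and without that library the value was -4.97 and passed. Serpina3i (0.27 ± 0.47) and Serpina3c (-0.33 ± 0.24) lay near 0, and Serpina3a had no counts.

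Serpina3n, Serpina3c and Serpina3b gave a contrast of similar upstream sequence and different response, and their 250 bases before the RefSeq start (GRCm38.p6) are shown for that reason. Capitals mark TATAAA, which was present in Serpina3c and Serpina3b. In Serpina3n none of the searched motifs TGANTCA, TTCNNNGAA and TATAAA was found, so its line has no capitals. Each stretch is printed 5′ to 3′ on the strand of the gene.
Serpina3n, chr12:104406458-104406707, plus strand: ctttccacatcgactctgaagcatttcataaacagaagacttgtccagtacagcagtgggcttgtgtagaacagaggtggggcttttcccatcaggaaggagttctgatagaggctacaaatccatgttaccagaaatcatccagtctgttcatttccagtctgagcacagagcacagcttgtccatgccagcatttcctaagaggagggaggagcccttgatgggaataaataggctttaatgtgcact
Serpina3c, chr12:104153873-104154122, minus strand: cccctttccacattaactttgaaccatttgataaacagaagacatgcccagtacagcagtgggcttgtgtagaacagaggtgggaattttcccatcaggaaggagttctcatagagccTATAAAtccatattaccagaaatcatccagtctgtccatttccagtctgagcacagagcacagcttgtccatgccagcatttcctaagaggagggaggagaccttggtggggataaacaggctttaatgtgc
Serpina3b, chr12:104127746-104127995, plus strand: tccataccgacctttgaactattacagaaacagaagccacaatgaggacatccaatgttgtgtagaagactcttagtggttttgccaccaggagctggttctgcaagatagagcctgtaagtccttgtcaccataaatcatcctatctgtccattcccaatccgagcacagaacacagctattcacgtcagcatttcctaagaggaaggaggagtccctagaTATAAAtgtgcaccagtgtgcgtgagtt
In a global alignment the stretches of Serpina3n and Serpina3c were 90.5% identical, the highest value of the 28 pairs among the 8 Serpina3 genes with an entry. Serpina3b was 69.7% identical to Serpina3n and 67.5% to Serpina3c. The median was 50.3% over the 28 pairs and 49.2% over the 1350 other pairs of member promoters. Against this, Serpina3c had 20.9, 16.3, 21.1 and 22.0 CPM in NcstnΔKC skin and 27.0, 34.3, 15.0 and 24.9 CPM in normal skin, a log2 difference of -0.33 ± 0.24 (SE, adjusted p = 0.292) with a 95% interval -0.87 to 0.21, whereas those of Serpina3n and Serpina3b were 2.09 and -5.80. The interval of Serpina3c does not reach that of either gene. The counts of the copies are not independent, as 21.6% of the 31-base stretches of Serpina3n and 16.9% of those of Serpina3c are shared with other genes.

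Serpina12 (ENSMUSG00000041567, mm10, chromosome 12, 104028769 to 104044443) encodes vaspin, an inhibitor of kallikrein-related peptidase 7 made in fat and in the epidermis. It had 43.3, 13.9, 14.2 and 17.1 CPM in NcstnΔKC skin, against 141, 82.0, 131 and 96.0 CPM in normal skin. The groups did not overlap, and the log2 fold change was -2.35 ± 0.40 (SE, adjusted p = 0.00202), or -2.89 to -2.16 without each library in turn. Klk7, the gene of that peptidase, moved the opposite way, with 940.0, 1285, 766 and 729.6 CPM in NcstnΔKC skin and 493, 544, 494 and 422 CPM in normal skin (log2 fold change 0.93 ± 0.20 SE, adjusted p = 0.00592). The 8 adipocyte markers took 0.0412, 0.00979, 0.0233 and 0.0252% of counts in NcstnΔKC replicates 1 to 4 and 0.0358, 0.0793, 0.0315 and 0.0778% in normal replicates 1 to 4. Of these markers 6 of 8 were lower, 0 were higher and none was at 0, and the part of fat cells in the fall of Serpina12 was not tested. The 12 suprabasal keratinocyte markers took 1.01, 1.01, 0.547 and 0.586% of counts in NcstnΔKC replicates 1 to 4 and 1.71, 0.831, 1.57 and 1.40% in normal replicates 1 to 4. Of these 6 were lower, 3 were higher and none was at 0, with a median log2 fold change of -0.92, and their part was not tested either.

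The liver serpins of clade a were at the edge of detection. The Serpina1 genes, which encode α1-antitrypsin, had 0 tested members of 6, and their summed level was 0.205 to 0.587 CPM in NcstnΔKC skin and 0.456 to 5.64 CPM in normal skin. The highest value came from 28 counts of Serpina1e in normal replicate 2. Copies of this group share 44.7% to 85.8% of their 31-base stretches, apart from Serpina1f. Serpina5, Serpina6, Serpina11 and Serpina16 had 0 to 3 counts over a group, and Serpina7 had none. The 8 liver markers took at most 0.0335% of counts in any library, with Apoa2 and Fgb at 0. Serpina9 (log2 fold change 1.68 ± 0.84 SE, adjusted p = 0.135) and Serpina10 (log2 fold change 1.29 ± 0.83 SE, adjusted p = 0.234) were tested at low counts and did not pass, but did without normal replicate 2 (3.02) and normal replicate 4 (2.83).

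**Figure D3:**
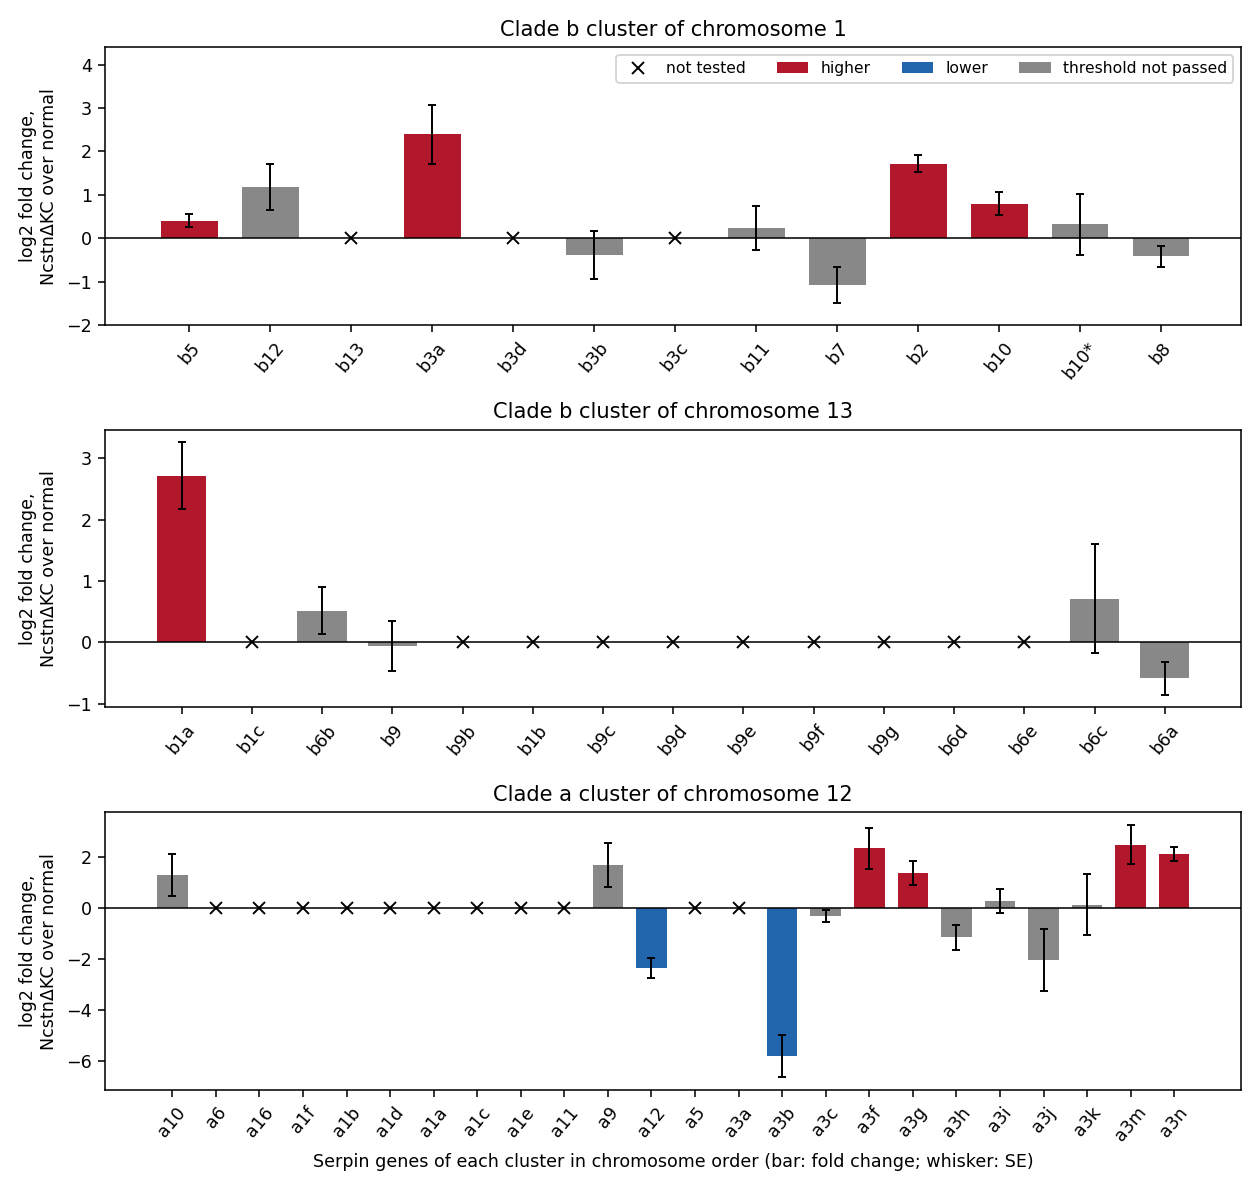
Log2 fold change of NcstnΔKC over normal skin along the Serpin clusters of chromosomes 1, 13 and 12, in gene order, with standard errors and crosses for genes that were not tested. Symbols omit the word Serpin, and the asterisk marks the Serpinb10 row ENSMUSG00000102843. Neighbours differ in sign in all 3 clusters, and Serpina3b at -5.80 lies in the same cluster as Serpina3n at 2.09.

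Of clades c to i, 7 of 11 members were tested, 3 were lower and 0 were higher. For that 0, 1 member had a log2 fold change above 0 at an unadjusted p under 0.05, and the DESeq2 Wald test called 1 and limma-voom 0. Taken in either direction 42.9% of the tested members passed, near the 44.1% of all tested genes. Serpinf1 (ENSMUSG00000000753, mm10, chromosome 11, 75409769 to 75422701), pigment epithelium-derived factor, a secreted serpin that restrains vessel growth and inhibits no protease, had 22.1, 45.7, 42.8 and 45.4 CPM in NcstnΔKC skin, against 213, 209, 105 and 137 CPM in normal skin. The groups did not overlap, and the log2 fold change was -2.09 ± 0.30 (SE, adjusted p = 0.000996). The 9 fibroblast markers took 0.444, 1.12, 1.29 and 1.43% of counts in NcstnΔKC replicates 1 to 4 and 3.30, 2.95, 0.395 and 0.512% in normal replicates 1 to 4, with 4 of 9 lower, 0 higher and none at 0. Serpinf1 was also highest in normal replicates 1 and 2. In normal replicates 3 and 4 the marker share was below that of NcstnΔKC replicates 2 to 4, while Serpinf1 was higher. The part of these cells was not tested. Without either normal replicate 1 or normal replicate 2 the value was -1.86 and -1.90 and still passed.

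Serping1 (ENSMUSG00000023224, mm10, chromosome 2, 84765387 to 84775444), the C1 inhibitor of complement and kinins, had 103, 145, 128 and 147 CPM in NcstnΔKC skin, against 250.2, 282, 155 and 181 CPM in normal skin, a log2 difference of -0.73 ± 0.21 (SE, adjusted p = 0.0198). The groups did not overlap, but the lowest normal library, replicate 3, lay just above the highest NcstnΔKC one. The call ended without NcstnΔKC replicate 3 or normal replicate 1 or 2 (-0.71 to -0.52), with total-count scaling (-0.41) and with the authors' FPKM. Serpinh1 (ENSMUSG00000070436, mm10, chromosome 7, 99345375 to 99353230), the collagen chaperone of the endoplasmic reticulum, had 45.2, 95.7, 91.4 and 162 CPM in NcstnΔKC skin, against 197, 192, 179 and 181 CPM in normal skin (log2 fold change -0.93 ± 0.32 SE, adjusted p = 0.0403). The normal values were tight and the NcstnΔKC values were not. The call ended without NcstnΔKC replicate 2 or 3 or any 1 of the normal libraries (-0.90 to -0.82), and with total-count scaling (-0.59). The fibroblast shares given above belong beside both genes, and their part was not tested.

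Serpine2, or protease nexin, had a value near 0 with a wide margin (0.02 ± 0.30, 95% interval -0.66 to 0.69), as did antithrombin, Serpinc1 (0.15 ± 0.55, 95% interval -1.09 to 1.40). Neuroserpin, Serpini1, had 0.75 ± 0.39 at 1.01 to 2.07 CPM in NcstnΔKC skin and 0.403 to 1.04 CPM in normal skin. Serpinf2, the antiplasmin gene, had 17 counts over the NcstnΔKC libraries and 18 over the normal ones, and Serpini2 had none. Serpind1, heparin cofactor, had 4 over the NcstnΔKC libraries and 10 over the normal ones, and Serpine3 had 1 over the NcstnΔKC libraries and 0 over the normal ones.

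Compared per kilobase of gene model, the groups differed in which genes made up the family's transcripts. Serpina3n made up 22.4%, 30.2%, 32.9% and 35.4% of the family's summed FPKM in NcstnΔKC replicates 1 to 4, against 8.16%, 10.7%, 3.76% and 7.03% in normal replicates 1 to 4. Serpinb2 made up 19.2% ± 2.34 in NcstnΔKC skin and 5.65% ± 0.945 in normal skin (SD, n = 4 each). Serpina3b took 0.261% ± 0.233 in NcstnΔKC skin and 12.1% ± 7.14 in normal skin, and Serpinb6d took 0.0247% ± 0.0451 in NcstnΔKC skin and 8.41% ± 9.55 in normal skin. The sum over clade b was 336 ± 33.3 FPKM in NcstnΔKC skin and 229 ± 92.4 FPKM in normal skin, and that over the other clades 411 ± 117 FPKM in NcstnΔKC skin and 377 ± 56.0 FPKM in normal skin (SD, n = 4 each). The clade b sums ran from 312.0 to 384.6 FPKM in NcstnΔKC skin and from 128 to 311.8 FPKM in normal skin. In FPKM the groups thus did not overlap but lay less than 1 FPKM apart. FPKM follows the column total, whereas CPM follows the scaling used in the test. In CPM, not divided by gene length, the clade b sums overlapped, at 1160 to 1367 in NcstnΔKC skin and 743 to 1260 in normal skin. The sums of the other clades ran from 249.0 to 530.4 FPKM in NcstnΔKC skin and from 306 to 442 FPKM in normal skin, and overlapped. Their mean in CPM was 911 ± 217 in NcstnΔKC skin and 1152 ± 88.4 in normal skin (SD, n = 4 each), the reverse direction. Within clade b the chromosome 1 genes summed to 256 to 339 FPKM in NcstnΔKC skin and 102 to 162 FPKM in normal skin, which did not overlap, and those of chromosome 13 to 29.0 to 62.9 FPKM in NcstnΔKC skin and 26.5 to 151 FPKM in normal skin, which did. In CPM the chromosome 1 sums also did not overlap, at 899 to 1185 in NcstnΔKC skin and 504 to 776 in normal skin.

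**Figure D4:**
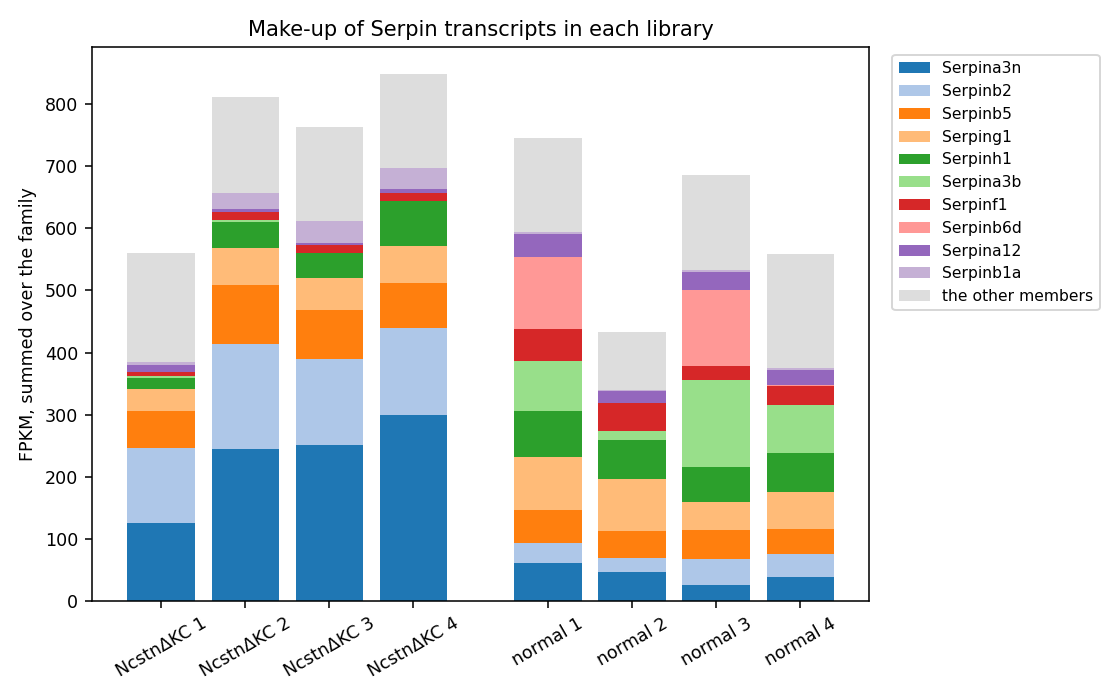
FPKM of the Serpin family in each library, stacked by gene, with NcstnΔKC libraries on the left. Serpina3n and Serpinb2, at the base of each bar, together take a larger part in every NcstnΔKC library than in any normal one, and Serpinb6d is visible only in normal replicates 1 and 3.

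Proteases and other inhibitors that serpins work beside were read from the same fit, in which 21.4% of all tested genes were higher and 22.7% lower. Among 11 tested genes of the plasminogen and coagulation system 4 were higher and 1 lower, with a median log2 fold change of 0.22. On the log2 scale Plaur, the urokinase receptor, rose by 3.12 ± 0.47 and the thrombin receptor F2r by 2.27 ± 0.23, S100a10, which binds plasminogen at the cell surface, rose by 0.63 ± 0.19, and Vtn, or vitronectin, an adhesion protein of plasma and matrix, fell by 2.07 ± 0.24. Plau, the gene of urokinase itself, the target of Serpinb2, had 10.5, 59.6, 81.4 and 85.3 CPM in NcstnΔKC skin and 12.9, 28.0, 18.6 and 24.1 CPM in normal skin (log2 fold change 1.50 ± 0.55 SE, adjusted p = 0.0513). Plat, the tissue activator, had -0.02 ± 0.29, and Plg, the gene of plasminogen, had 1 count in all 8 libraries.

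Among the granule proteases of leukocytes and mast cells, 3 of 5 tested were higher and 0 lower, and all 3, Tpsb2 (2.91 ± 0.61), Cpa3 (2.09 ± 0.54) and Cma1 (1.54 ± 0.53), belong to mast cells. Elane, the elastase that Serpinb1a inhibits, had 7 counts over the NcstnΔKC libraries and 4 over the normal ones, Prtn3 had 30 over the NcstnΔKC libraries and 8 over the normal ones, and Ctsg had 13 over the NcstnΔKC libraries and 1 over the normal ones. Gzmb, the granzyme that Serpina3n and Serpinb9 inhibit, was not tested, because only 3 libraries held enough counts for the filter. It had 7, 112, 219 and 285 counts in NcstnΔKC replicates 1 to 4, against 0, 2, 0 and 3 counts in normal replicates 1 to 4. Its lowest NcstnΔKC library was again replicate 1.

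Among 14 tested epidermal and lysosomal proteases 7 were higher and 0 lower, with a median of 0.72. Klk6 had 319, 332, 268 and 254 CPM in NcstnΔKC skin and 4.56, 21.2, 6.49 and 6.64 CPM in normal skin (log2 fold change 4.94 ± 0.48 SE, adjusted p = 0.000179), and Klk8 rose on the log2 scale by 2.42 ± 0.17. Ctsl and Ctsh, lysosomal cathepsins, rose by 1.73 ± 0.20 and 0.72 ± 0.15. Among 14 tested inhibitors of other families 6 were higher and 5 lower, with a median of 0.06. Stfa1 and Stfa3, stefins that block cathepsins, rose by 7.21 ± 0.55 and 7.29 ± 0.71 from near 0 in normal skin, and Slpi, an elastase inhibitor, rose by 3.76 ± 0.31. Timp3, an inhibitor of metalloproteases, fell by 1.24 ± 0.20. Over the 4 lists 20 genes were higher and 6 lower, and with scaling by basal keratinocyte genes 13 and 9.

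In some members a single library stood apart from the others of its group. Among the 14 members that passed, the call of 7 was kept in every alternative tried but the libraries without Xist: Serpinb2, Serpinb3a, Serpinb1a, Serpina3n, Serpina3b, Serpina12 and Serpinf1. The other 7 lost it in at least 1 further alternative. When the effect of the group was allowed to differ between libraries with and without Xist, the difference passed in 0 of 35 members and in 0 of 15684 genes (edgeR's quasi-likelihood test), and it had an unadjusted p under 0.05 in 14 of the 35 and in 917 of all. The 14 included Serpina3m, Serpinb3a, Serpina9 and Serpinb8, named after their values were seen. Serpinb8 had a log2 fold change of -1.02 in the libraries with Xist, where it passed, and 0.13 in those without. With NcstnΔKC replicate 1 and normal replicate 2 left out together, clade b had 5 higher and 3 lower members of 16 tested. The other clades had 5 and 6.

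**Figure D5:**
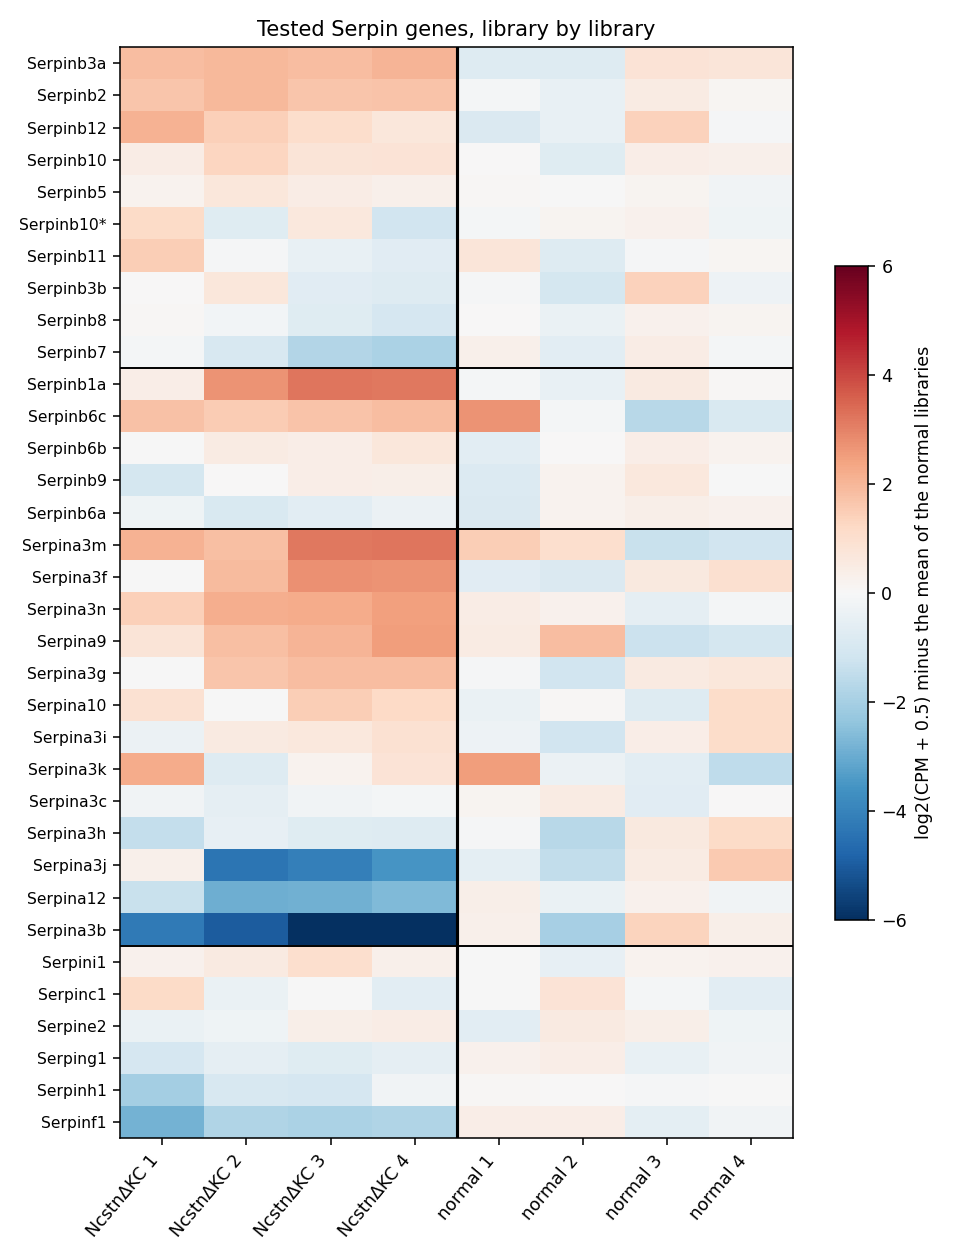
Level of each tested Serpin gene reported here in every library, as log2(CPM + 0.5) minus the mean of the 4 normal libraries, with red above and blue below that mean and lines between the blocks of clade and chromosome. The asterisk marks the Serpinb10 row ENSMUSG00000102843. NcstnΔKC replicate 1 is paler than replicates 2 to 4 in Serpinb1a, Serpina3f and Serpina3g, and normal replicates 1 and 2 differ from normal replicates 3 and 4 in Serpina3m and Serpina9.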

How the data were processed

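RNA sequencing of whole mouse skin was deposited as 1 table with a count and an FPKM value for every Ensembl gene and library. The counts are raw whole numbers that the authors made with tools named in the submitters' processing notes as TopHat2 2.0.9, TopHat and HTSeq, which list mm10 and hg38 as builds and give neither a role. The FPKM values deposited by the authors equalled, for each of 9175 genes with at least 50 counts, a fixed factor per gene multiplied by its share of the column's counts, with a departure of at most 0.00103%. The annotation, strand setting and handling of shared reads were not given in the sources used here. Of the gene IDs, 34267 occur in GENCODE M21 (mm10), and 58 of 64 members have the same coordinates there.

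Libraries were grouped by label (4 NcstnΔKC, 4 normal). No label states that the mice are independent litters or days, so p-values measure the spread between these libraries. Genes were filtered with filterByExpr, which left 15684, scaled by TMM and compared with edgeR 4.0.16 (R 4.3.3, robust quasi-likelihood test, two-sided, Benjamini-Hochberg over all tested genes, threshold 0.05, common biological coefficient of variation 0.315). The procedure was also run on simulated counts with few changed genes and a fixed dispersion. The data here differ in both, so that run does not measure its error for them. CPM is the count over the scaled library size. Differences between library pairs of a group exceeded sampling noise. Alternatives used DESeq2 1.42.0 and limma 3.58.1 (FPKM with a pseudocount of 1) and are listed with their effect in the closing section. Marker shares of 17 gene lists were compared by exact permutation over libraries, where the lowest p was 0.0286 and the lowest adjusted p 0.0971. Promoters came from RefSeq (GRCm38.p6) and were aligned with Biopython 1.88. Shared sequence is the percentage of a gene's 31-base stretches that occur in another annotated gene. Tables and plots used Python 3.11.15, numpy 2.4.6, pandas 2.3.3, scipy 1.17.1 and matplotlib 3.10.9.

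The members, the gene lists and the tests were chosen with earlier results of these data known. The rule for named genes gave in full up to 10 members in each direction with the lowest p among those past the threshold and the 5 with the highest mean FPKM, in clade b and in the other clades, and up to 4 genes of each partner list. 1 tested member is counted but not reported here by name. Values of other members are given where a role or a library is described.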

Additional observations from a re-analysis of the deposited data

Results flagged for a closer look

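Among 74 groups of 4 libraries, 12 held a library that stood apart from the other 3 by Dixon's test at its 95% level, which chance gives in about 1 of 20 groups. Of the 12, 7 were NcstnΔKC replicate 1, 1 was NcstnΔKC replicate 2, 3 were normal replicate 1 and 1 was normal replicate 4.

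In NcstnΔKC replicate 1, Serpinb11 had 106 CPM, where the other NcstnΔKC libraries had 23.3 to 36.3, Serpina12 had 43.3 CPM (others 13.9 to 17.1) and Serpina3j had 27.7 CPM (others 0.615 to 1.48). Serpinb6d at 0.755 CPM (others 0 to 0.0683) and Serpinb6e at 0.671 CPM (others 0 to 0.0691) were also higher there, on 9 and 8 counts. Serpinf1 at 22.1 CPM (others 42.8 to 45.7) and Serpina3g at 14.8 CPM (others 48.7 to 55.7) were lower there. In NcstnΔKC replicate 2, Serpinb2 had 538 CPM (others 447 to 449.7).

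In normal replicate 1, Serpinb6c had 18.7 CPM, where the other normal libraries had 0.424 to 2.22, Serpina3k had 7.74 CPM (others 0 to 0.605) and Serpinb6a had 103 CPM (others 219 to 238). In normal replicate 4, Serpinb6e had 9.51 CPM (others 0.202 to 1.69). The causes were not tested.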

How the results depend on the processing

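Of the 14 members past the threshold, 0 kept the call in every alternative, because the 4 libraries without Xist gave 0 higher and 0 lower members in clade b and in the other clades, 1 and 0 partner genes, and 3 and 1 genes in the whole table, with medians of 0.67 for clade b and -0.22 for the other clades. That setting has 2 libraries per group. With the 4 libraries that have Xist, 5 of 17 tested clade b members were lower. There 7 members of the other clades and 31 partner genes were higher, the clade b median was 0.11, and Serpinb11 turned to -0.58.

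Main counts, higher and lower, were 3360 and 3555 in the whole table, 5 and 0 in clade b, 4 and 5 in the other clades and 20 and 6 among partner genes. Total-count scaling gave 5323 and 2224 in the whole table, 3 lower members in the other clades, 3 lower partner genes and a clade b median of 0.73. Scaling by basal keratinocyte genes gave 1000 and 5821 in the whole table, 3 and 3 in clade b, 1 higher in the other clades, 13 higher partner genes, medians of -0.081 and -0.24, and Serpinb5 at -0.083. The authors' FPKM with limma gave 5351 and 2115 in the whole table, 3 lower in the other clades and 3 lower partner genes. A log2 fold change of at least 1 left 1597 and 2306 genes, 3 higher clade b members, 3 lower members of the other clades and 2 lower partner genes. Upper-quartile scaling gave 3 and 1 in clade b. No filter, the DESeq2 Wald test, limma-voom and Xist as a covariate each gave 1 lower clade b member. Without the filter 23 clade b members were tested, and the lower member was not among the 15 of the main run. A fit lacking both NcstnΔKC replicate 1 and normal replicate 2 gave 3 lower clade b members of 16 tested. It was chosen after seeing the data, like the test of Xist status with group.

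Without each library in turn, clade b had 3 to 6 higher and 1 to 2 lower members of 16 tested. The other clades had 1 to 5 higher and 3 to 6 lower. In clade b, 1 lower call in every run was of a member that the main filter left out. The cause of the other changes was not tested.

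No label pairs the libraries. Same-numbered libraries had deviation correlations of -0.0181, -0.0315, -0.0129 and 0.218, and not every library correlated best with its own number. These values cannot exclude a pairing. In both groups replicates 3 and 4 held Xist, so the numbers are not without structure. With the replicate number as a block, the whole table had 2923 and 3058 calls and clade b 3 higher members. The calls of Serpinb5, Serpinb10, Serpina3g and Serpina3m ended.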

Other observations

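The 5 Serpin rows marked as pseudogenes held few counts. Serpina3e-ps had 3, 3, 5 and 5 counts in NcstnΔKC replicates 1 to 4, against 10, 4, 7 and 16 counts in normal replicates 1 to 4. Serpina3d-ps had 5, 4, 6 and 1 counts in NcstnΔKC skin and 4, 0, 4 and 9 counts in normal skin. Serpina4-ps1 and Serpinb1-ps1 had at most 3 counts in a library, and Serpina3l-ps had none.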
